A study of Drosophila melanogaster with 8 samples.

Results

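The genes described here are PPO1, PPO2 and PPO3, the prophenoloxidase genes of Drosophila melanogaster, and lz, which encodes the transcription factor Lozenge. They were chosen by name, with earlier results of these arrays known, among them the higher readings of PPO1 and PPO2 in heart than in aorta. They are 4 of 13287 genes named on the arrays, which carried 14456 gene oligonucleotides. Each of the 4 was read by 1 oligonucleotide printed in 1 spot, and none of these spots carried a bad mark on any of the 8 arrays. The file annotation gave PPO1 under its older symbol Bc (black cells, CG5779), PPO2 as CG8193 and PPO3 as Dox-A3 (CG2952). The PPO genes lie on chromosome arm 2R and lz on chromosome X.

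Prophenoloxidases are copper enzymes of the hemocyanin superfamily. Cut by serine proteases in wounded or infected hemolymph, they oxidise phenols such as dopamine to quinones, which polymerise to melanin. PPO1 and PPO2 are the enzymes stored in crystal cells, the hemocytes that break open at a wound, and lz, a RUNX factor, is required for crystal cells to form. PPO3 is known from lamellocytes, the flat hemocytes that wrap parasite eggs. In the larva, hemocytes circulate, rest in patches under the cuticle, and arise in the lymph gland, which flanks the front of the dorsal vessel.

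The dorsal vessel is the fly's tubular heart, with a contractile posterior heart and an anterior aorta, parted at the cardiac valve. All RNA came from larvae in the third instar, of a wild-type strain, WT (yw; Canton S), raised at 25 °C, and the labels name no transgene or treatment. On 4 arrays, RNA of 10 pooled hearts was hybridised beside RNA of 10 pooled aortae. On the other 4, RNA of 5 pooled whole dorsal vessels was hybridised beside RNA of 5 pooled sibling whole larvae. Within each set the tissue of interest was labelled with Cy3 on 2 arrays and with Cy5 on 2, and the 4 arrays were biological replicates. RNA was amplified by repeated in vitro transcription before labelling. The cells a dissected vessel carries with it (pericardial nephrocytes, lymph gland, attached hemocytes, fat body) were not separated, and fewer cells of a type and less RNA per cell cannot be told apart in such pools.

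Brightness is given below in the relative fluorescence units (RFU) of the scanner, and the detection level of an array and dye is the level that 95% of its negative and empty spots stayed under. Differences are log2 ratios within an array after background correction and loess normalisation. A gene entered the test if either RNA lay above detection on 2 or more arrays and its spot was free of bad marks on at least 3 of the comparison's arrays and 5 of all 8. It passed where limma's adjusted p was below 0.05. The heart transcription factor genes Hand (5.56, adjusted p = 4.68e-05) and H15 (3.43, adjusted p = 3.4e-05), on the log2 scale, were higher in dorsal vessel than in whole larva, as were 6 of 6 tested nephrocyte markers, Hand among them, of which 4 entered the test through dorsal vessel alone. The filter favoured the direction of those 4. Of 10 heart and muscle genes tested in the same comparison, 5 were higher and 3 lower. Among all tested genes 15.0% were higher and 22.9% lower. Between replicates, the dorsal vessel set gave correlations of log2 ratios over genes of r = 0.792 to 0.891. The heart and aorta set gave -0.466 to 0.495, lowest between replicates 1 and 3. There the median log2 ratio of the midgut markers was 3.40 on replicate 1 and -5.26 on replicate 4, and that of the salivary gland markers 3.23 on replicate 1 and -3.08 on replicate 3. One print block of 24 was displaced on 3 arrays; it holds none of the 4 genes, and its genes are left out of every list below. The number of arrays limits the precision of all values.

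PPO2 was bright in every RNA. In heart it read 485, 808, 1054 and 1018 RFU on replicates 1 to 4, and in aorta 72.0, 140.2, 144 and 132 RFU. Every heart reading was higher than every aorta reading, and the groups did not overlap. The share of all genes that stay apart in this way is not given, here or where readings below do not overlap. The brightest heart readings were close to the ceiling of their channel: on replicate 4 the reading was itself the channel maximum, and on replicate 3 the maximum was 1075 RFU. The files carry no saturation mark, so how far those readings were compressed was not tested.

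The log2 ratio of PPO2 in heart against aorta was 2.37, 2.02, 2.74 and 2.35 on the 4 arrays, a mean of 2.37 ± 0.29 (SD, n = 4), or 5.16-fold. All arrays gave the same direction, under either dye. The value is a description with no test, because the gene was chosen with this contrast known; in the same contrast 2.66% of the 5754 tested genes passed in either direction and 1.91% were higher in heart.

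PPO1 was much dimmer on its oligonucleotide and was measured in every heart pool. Its heart readings were 7.53, 15.0, 29.4 and 36.5 RFU, all above detection. Its aorta readings were 1.53, 4.98, 2.38 and 3.83 RFU, of which that of replicate 1 was not above detection. The groups did not overlap. The log2 ratio in heart against aorta was 1.14, 1.15, 2.46 and 2.40, a mean of 1.79 ± 0.74 (SD, n = 4), or 3.46-fold. An offset of 50 RFU gave 0.36 and plain background subtraction 2.79 in its place, so the size of the fold rests on the background correction. The lower pair of values came from the arrays with aorta in Cy3 and the higher pair from the arrays with aorta in Cy5, so the ratio moved with the dye orientation while its sign did not, and the orientations weigh equally in the mean. The median of the midgut markers split the same arrays, at 3.40 and 0.74 on replicates 1 and 2 and at -3.96 and -5.26 on replicates 3 and 4, and the part of neither in the PPO1 values was tested.

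**Figure D1:**
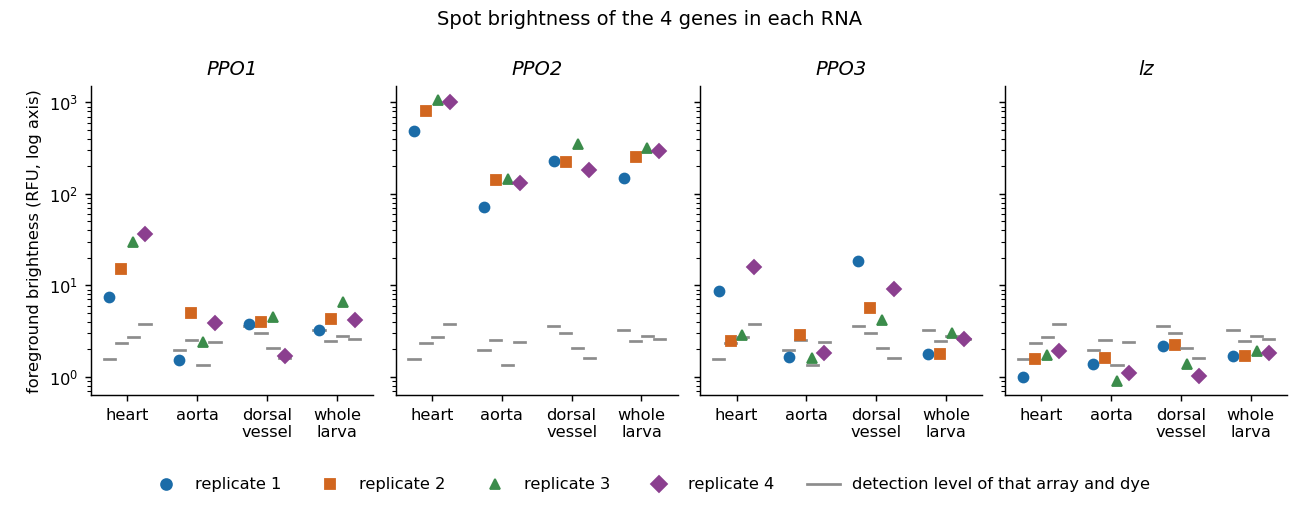
Foreground brightness (RFU, log axis) of PPO1, PPO2, PPO3 and lz in heart, aorta, dorsal vessel and whole larva, with 1 point for each of 4 replicate arrays and a grey bar at the detection level of that array and dye. PPO2 read 485 to 1054 RFU in heart and 72.0 to 144 RFU in aorta, while every lz reading lay under its bar.

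In the whole dorsal vessel, neither PPO1 nor PPO2 passed as higher than in the larva. PPO2 read 229.9, 225, 353 and 182 RFU in dorsal vessel and 148, 254, 319 and 292 RFU in whole larva. The ranges overlapped, and dorsal vessel was the brighter channel on replicates 1 and 3 only. After loess the log2 ratio was -0.04, -0.49, -1.13 and -0.78, a mean of -0.61 (SE 0.14, 95% interval -0.93 to -0.29), with limma's adjusted p = 0.0145, so PPO2 passed as lower in dorsal vessel, 1.53-fold. The loess curve moved these 4 ratios by -0.67, -0.32, -1.28 and -0.10. When each array was centred on its median in place of the curve, the log2 ratio was 0.06 (adjusted p = 0.854), and with the authors' deposited ratios it was -0.47 (adjusted p = 0.103); an offset of 50 RFU (-0.15, adjusted p = 0.133) or loess within each print block (-0.26, adjusted p = 0.160) also ended the call. Without replicate 2 or replicate 3 the adjusted p was 0.0686 and 0.0696.

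PPO1 read 3.75, 3.98, 4.51 and 1.71 RFU in dorsal vessel and 3.27, 4.23, 6.59 and 4.18 RFU in whole larva. These readings overlapped and lay close to detection, above it on 4 of 4 and 3 of 4 arrays. The log2 ratio was 0.15, -0.17, -0.58 and -0.12, with a fitted mean of -0.18 (95% interval -0.57 to 0.21, adjusted p = 0.395), and it did not pass. Of the 3 members tested, 1 was lower and 1, PPO3, higher in dorsal vessel; among all 6575 genes tested 22.9% were lower, 15.0% were higher and 37.9% passed in either direction, so a call here was common.

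Within an array, the difference between the PPO2 and PPO1 log2 ratios of heart against aorta was 1.23, 0.86, 0.27 and -0.06. These differences carry the limits of both readings: on replicates 3 and 4, where the ratios were closest, PPO2 in heart was near or at the channel maximum, and on replicate 1 PPO1 in aorta was not above detection. For dorsal vessel against whole larva the difference was -0.19, -0.32, -0.55 and -0.66, and there PPO2 had the lower ratio on all 4 arrays.

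After normalisation, the log2 level of PPO2 was 14.50 ± 0.49 in heart, 13.67 ± 0.50 in whole larva, 13.06 ± 0.10 in dorsal vessel and 12.13 ± 0.39 in aorta (SD, n = 4 each). Each neighbouring pair in that order stood apart by more than the larger SD of the pair. PPO1 was at 9.40 ± 0.85 in heart, 7.92 ± 0.39 in whole larva, 7.74 ± 0.13 in dorsal vessel and 7.60 ± 0.40 in aorta. Below heart, no neighbours in the PPO1 order differed beyond their spread. Heart and aorta were read on different arrays from dorsal vessel and whole larva, so the order across sets was not tested. The authors' deposited log2 ratios for heart against aorta were 2.21 ± 0.30 for PPO2 and 2.43 ± 0.92 for PPO1 (SD, n = 4).

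**Figure D2:**
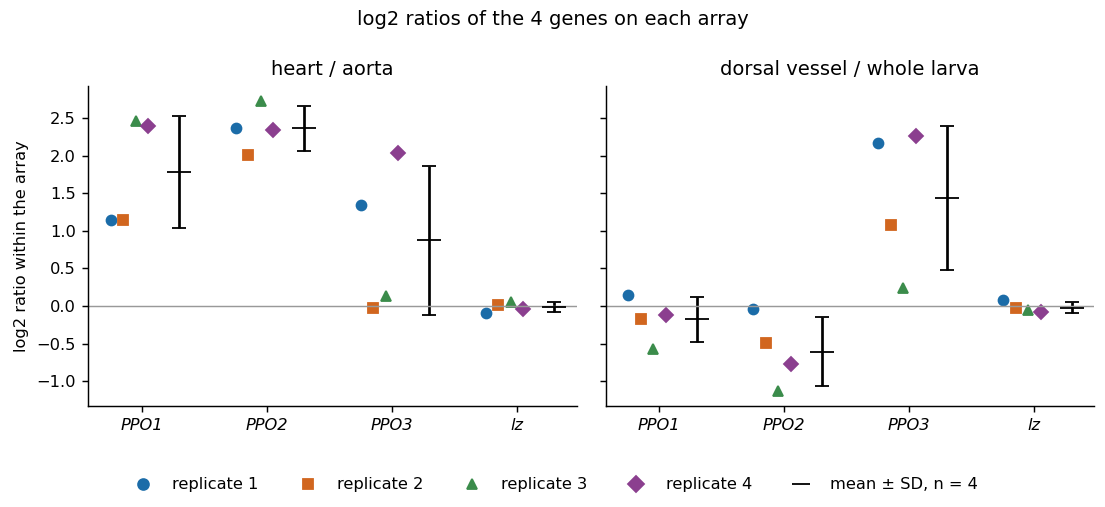
Log2 ratios within each array for heart over aorta (left) and dorsal vessel over whole larva (right), with 1 point per replicate and the mean ± SD of 4 arrays in black. PPO2 and PPO1 lie above 0 on all heart and aorta arrays, at means of 2.37 and 1.79, while PPO3 lies highest of the 4 genes in dorsal vessel, at a mean of 1.44.

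PPO3 was above detection in 4 of 4 dorsal vessel pools, 4 of 4 heart pools, 2 of 4 aorta pools and 1 of 4 whole larva pools. In dorsal vessel it read 18.3, 5.60, 4.22 and 9.18 RFU. In whole larva it read 1.79, 1.77, 3.04 and 2.57 RFU. Dorsal vessel was higher on every array and the readings did not overlap. The log2 ratio was 2.17, 1.08, 0.25 and 2.26, with a fitted mean of 1.44 (SE 0.43, 95% interval 0.42 to 2.46), 2.71-fold, and limma's adjusted p = 0.0369, so PPO3 passed as higher in dorsal vessel. It entered the test through dorsal vessel alone, and with no filter on dim probes it missed (adjusted p = 0.0794). The call rested on each of 3 arrays: the adjusted p was 0.112 without replicate 1, 0.0727 without replicate 2 and 0.162 without replicate 4. It also missed with an offset of 50 RFU (log2 ratio 0.19, adjusted p = 0.0873) and with plain background subtraction (2.96, adjusted p = 0.0663).

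Between heart and aorta, PPO3 was uneven. It read 8.65, 2.46, 2.90 and 15.7 RFU in heart and 1.66, 2.88, 1.60 and 1.82 RFU in aorta. Replicates 1 and 4 were high in heart, while on replicates 2 and 3 the heart reading was only just above detection, and the groups overlapped. The log2 ratio was 1.34, -0.02, 0.13 and 2.04, a mean of 0.87 ± 0.99 (SD, n = 4), given with no test; it was 0.11 with an offset of 50 RFU and 1.98 with plain background subtraction. Its log2 level was 8.65 ± 0.85 in dorsal vessel, 8.08 ± 0.95 in heart, 7.21 ± 0.13 in aorta and 7.21 ± 0.29 in whole larva. No neighbours in that order, heart and aorta included, stood apart by more than the larger SD of the pair.

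The transcription factor gene lz was not well above background anywhere. Its spot read 0.98 to 1.89 RFU in heart, 0.89 to 1.60 RFU in aorta, 1.02 to 2.21 RFU in dorsal vessel and 1.70 to 1.90 RFU in whole larva, and was above detection in 0 of the 16 array channels. It was therefore not tested, and no fold is given. Its RNA was not detectable with this oligonucleotide at this brightness, which does not show that it was absent. Other genes of crystal cell fate, gcm, Ser and Mlf, named after their values were seen, were likewise above detection on 0 arrays in every RNA.

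The rest of the crystal cell machinery was compared through a list of 20 genes, written with earlier results of these data known; 12 of them, lz included, were not tested in heart against aorta, and 11 not in dorsal vessel against whole larva, for want of arrays above detection or, for peb, of arrays without a bad mark. Of 8 tested in heart against aorta, 1 passed, higher in heart (1.91% of all tested genes were): srp (0.70, adjusted p = 0.0268), the GATA factor of blood and fat body. The list's median log2 ratio was 0.15, against -0.01 over all tested genes. Without replicate 1, 2 or 3 the adjusted p of srp was 0.0889, 0.150 and 0.0781, and on the 4 heart and aorta arrays alone it was 0.0814.

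Of 9 tested in dorsal vessel against whole larva, 3 were higher and 3 lower, where 15.0% and 22.9% of all tested genes were, with a median of -0.35 against -0.06. Of the 6, 1 in each direction (ush and klu) entered the test through the higher RNA alone. N, the Notch receptor whose signal selects crystal cells in the lymph gland, was lower by a log2 ratio of -1.98 (-1.91, -2.21, -1.89 and -1.93 on the arrays, adjusted p = 4.25e-05, 3.96-fold). The zinc finger gene klu was not well above background in dorsal vessel and read 2.06-fold lower there (adjusted p = 0.00156). The GATA gene srp was higher (0.71, adjusted p = 0.00382), with a positive ratio on all 4 arrays, and so was Jra, the fly Jun (0.57, adjusted p = 0.0307), whose adjusted p was 0.130 without replicate 2 and 0.119 without replicate 4. The other 2, named after their values were seen, were ush, a partner of GATA factors (0.39, adjusted p = 0.0388), and numb, a Notch inhibitor (-0.52, adjusted p = 0.0415). Without replicate 2 or 4 only 1 gene of the list was higher and 2 were lower. Without replicate 2, 3 or 4 neither ush nor numb passed (adjusted p of 0.155, 0.0859 and 0.132 for ush and of 0.134, 0.0891 and 0.146 for numb).

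**Figure D3:**
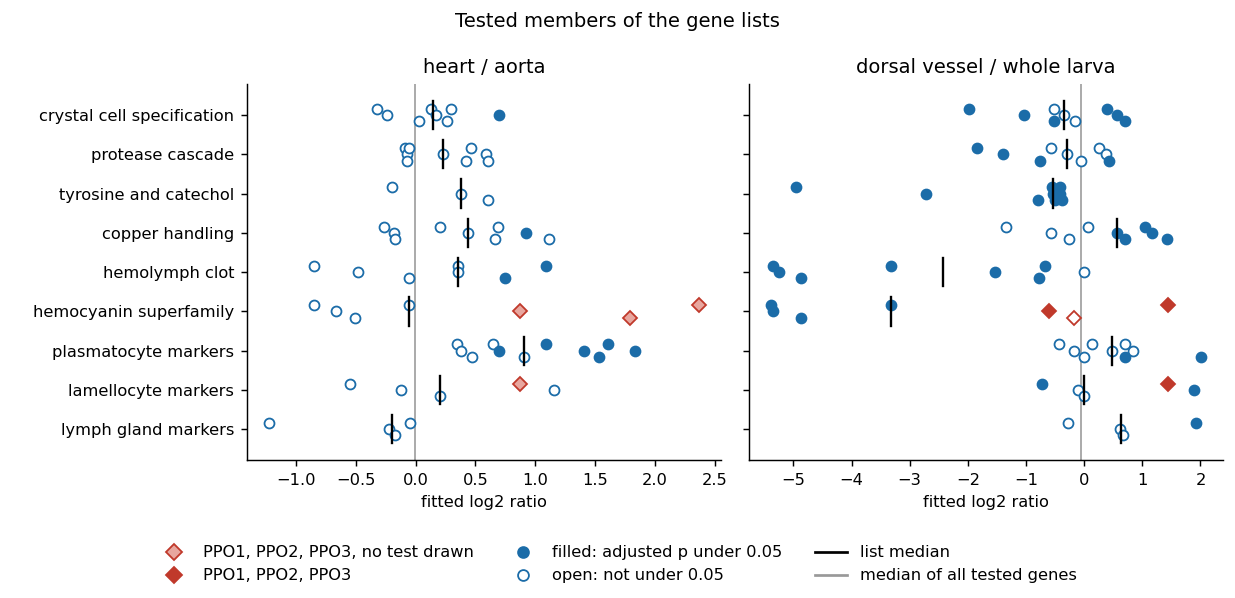
Fitted log2 ratios of the tested genes of 9 lists for heart over aorta (left) and dorsal vessel over whole larva (right); filled points passed the test, open points did not, red diamonds are PPO1, PPO2 and PPO3 (pale in heart over aorta, where no test is drawn), the black bar is the list median and the grey line the median of all tested genes. Plasmatocyte markers have a median of 0.91 in heart over aorta, and clot genes a median of -2.42 in dorsal vessel over whole larva.

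Proteases and serpins set off or hold back prophenoloxidase. Of 9 genes of this cascade tested in heart against aorta, 0 passed by limma and 4 had an unadjusted p below 0.05, with a median of 0.23. An unadjusted p below 0.05 was common there, at 1226 of all 5754 tested genes. In dorsal vessel against whole larva 3 of 9 were lower and 1 higher, with a median of -0.30, and such calls were common among all tested genes (22.9% lower and 15.0% higher). Of the 9, 4 entered the test through 1 RNA alone. Among them were Sp7 and PGRP-LC, each through the RNA in which it was higher, so the filter favoured their direction. Sp7, a protease that cuts prophenoloxidase, was not well above background in dorsal vessel and read 3.59-fold lower there (adjusted p = 0.000769). The protease gene grass, of the Toll branch, was lower (-1.40, adjusted p = 0.000306), and so was the serpin gene nec (-0.77, adjusted p = 0.0130), which missed without replicate 3 or 4 (adjusted p = 0.0646 and 0.0602). PGRP-LC, a receptor for bacterial wall fragments, was not well above background in whole larva and read 1.35-fold higher in dorsal vessel (adjusted p = 0.0178), a call that no 3 arrays held (adjusted p = 0.0521 to 0.0606).

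A further list held genes of tyrosine and dopamine metabolism, a laccase gene and the yellow family, of which 17 were on the arrays and 1 of those in the displaced block. In dorsal vessel against whole larva 9 were tested, and 8 of these entered through whole larva alone, so the filter fixed their direction and their count is not given as a result. Hn, of phenylalanine hydroxylase, was measured in both RNAs and was lower in dorsal vessel, at a log2 ratio of -4.95 (-5.20, -4.79, -5.10 and -4.72 on the arrays, adjusted p = 5.53e-05, 30.9-fold). The laccase gene stw and the yellow-family genes yellow-b and yellow-f were not well above background in dorsal vessel. They read 1.47-fold, 1.42-fold and 1.45-fold lower there. All were among the 8, so these values are given with no test. In heart against aorta 3 were tested and 0 passed by limma, with 1 at an unadjusted p below 0.05, as were 1226 of all 5754 tested genes.

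Of 9 tested copper genes, 5 were higher in dorsal vessel than in whole larva and 0 lower, against 15.0% and 22.9% of all tested genes, with a median of 0.57; with median centring 3 were higher and 1 lower, and 3 were higher without replicate 2 or 3. Ctr1A, the copper importer of the plasma membrane, had the smallest adjusted p (1.17, adjusted p = 0.0008), at 1.42, 1.22, 1.02 and 1.02 on the arrays. MTF-1, the metal-responsive factor (1.05, adjusted p = 0.00238), Atox1, a copper chaperone (0.70, adjusted p = 0.00303), and the metallothionein gene MtnD (1.42, adjusted p = 0.0174) followed, with Sod1, of superoxide dismutase (0.57, adjusted p = 0.0253), named after its value was seen. MtnD missed without replicate 1, 2 or 3 (adjusted p = 0.0610, 0.0511 and 0.0807), and Sod1 without replicate 2, 3 or 4 (0.0769, 0.0745 and 0.101). In heart against aorta Ctr1A was higher in heart (0.93, adjusted p = 0.0185) as 1 of 9 tested, against 1.91% of all tested genes, with a list median of 0.44. Without replicate 1, 2 or 3 Ctr1A did not pass (adjusted p = 0.0747, 0.0952 and 0.0597), nor on the 4 heart and aorta arrays alone (0.0773).

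Among genes of the hemolymph clot, the mesh that seals a wound beside melanin, 7 of 8 tested were lower in dorsal vessel and none higher, with a median of -2.42, where 22.9% of all tested genes were lower; 2 of the 8 entered the test through whole larva alone. Fondue, fon, was at -5.24 (adjusted p = 8.76e-06) and the storage proteins Lsp1gamma and Lsp1alpha at -5.35 (adjusted p = 4.25e-05) and -3.32 (adjusted p = 8.34e-05). Tig, of tiggrin, was lower in dorsal vessel (-1.53, adjusted p = 9.27e-05) and higher in heart than in aorta (0.75, adjusted p = 0.0164), the latter missing without replicate 2, 3 or 4 (adjusted p = 0.0978, 0.0572 and 0.0604). Hml, hemolectin of the hemocytes, did not pass in dorsal vessel against whole larva (-0.00, adjusted p = 0.994) but was higher in heart than in aorta (1.09, adjusted p = 0.0283), a call that no 3 of the 4 arrays held (adjusted p = 0.0604 to 0.132). In heart against aorta Tig and Hml were 2 of 7 tested, where 1.91% of all tested genes were higher in heart. On the 4 heart and aorta arrays alone each had an adjusted p of 0.0747.

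The members of the hemocyanin superfamily that carry no phenoloxidase activity, the larval serum proteins and their receptor Fbp1, are products of the fat body. Of 7 superfamily genes tested in dorsal vessel against whole larva, the PPO genes included, 5 were lower and 1 higher, with a median of -3.32. Among all tested genes 22.9% were lower and 15.0% higher. PPO2 is among the 5 and PPO3 is the 1 higher. Of the 7, 1 entered the test through dorsal vessel alone and 1 through whole larva alone. Lsp2 (-5.39, adjusted p = 4.23e-05) and Fbp1 (-4.88, adjusted p = 0.00124) were lower in dorsal vessel, as were the Lsp1 genes above. Between heart and aorta none of Lsp1alpha, Lsp1gamma, Lsp2 and Fbp1 passed, with fitted log2 ratios of -0.06, -0.85, -0.50 and -0.66. PPO2, from the same superfamily, had its dorsal vessel ratio at -0.61, and the fat body markers as a list had a median of -2.50 and a summed brightness of 55.5 to 127 RFU in dorsal vessel and 1097 to 2161 RFU in whole larva. The part of fat body RNA in the whole larva values of PPO2 was not tested.

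Plasmatocyte markers, like PPO1 and PPO2, were read higher in heart. Of 13 markers on the arrays 11 were tested in heart against aorta, and 6 passed as higher in heart, against 1.91% of all tested genes, with a median of 0.91; the 6 were above detection on at least 2 arrays in both RNAs. The 6 were Pxn, vkg, Ppn, Sr-CI, Hml and srp, listed after their values were seen. Their list median was 1.01, 0.98, 1.80 and 0.53 on the 4 arrays, and the summed brightness of the 13 markers was 209 to 382 RFU in heart and 76.7 to 148 RFU in aorta, without overlap. In dorsal vessel against whole larva 2 of 9 passed as higher, srp and the hemocyte gene He, where 15.0% of all tested genes did, with a median of 0.48. He was at 2.01 (adjusted p = 0.0159, and 0.0725 without replicate 3 and 0.0794 without replicate 4). The summed brightness of the 13 markers was 132 to 325 RFU in dorsal vessel and 74.9 to 112 RFU in whole larva. Between heart and aorta Sr-CI, a scavenger receptor gene, passed (1.53, adjusted p = 0.0153), and leaving out replicate 1, 2 or 4 ended its call (0.0507, 0.0672 and 0.0596), and crq, a receptor for dead cells, passed in neither comparison (adjusted p = 0.294 and 0.0705). With an offset of 50 RFU 1 of the 11 passed, and without replicate 1, 2, 3 or 4 the count was 2, 1, 2 and 4, Pxn passing in each. Fitted on the 4 heart and aorta arrays alone, none of the 6 passed, at an adjusted p of 0.0546 for Pxn and 0.0531 to 0.0814 over the 6. Cuticle markers were brighter in heart as well: their median was 2.11 over 4 tested genes (1.85, -0.27, 4.38 and 1.64 on the arrays). Of the 4, 0 passed by limma and 3 had an unadjusted p below 0.05, as had 1226 of all 5754 tested genes. The summed brightness of the cuticle markers was 848 to 2634 RFU in heart and 157 to 779 RFU in aorta, without overlap. Such sums are of readings before normalisation, and the separation was not particular to plasmatocyte and cuticle markers. The crystal cell, cascade and copper lists and markers of ring gland, trachea and nervous system also stood higher in heart without overlap. Those of fat body and lymph gland, among others, overlapped. The part of RNA from cuticle-forming cells and of hemocyte number in the PPO1 and PPO2 values was not tested.

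Markers of the lymph gland were also set beside these values. Of 4 tested in heart against aorta, 0 passed by limma and 1 had an unadjusted p below 0.05, as had 1226 of all 5754 tested genes. None of the 4 had a positive log2 ratio, with a median of -0.20. After median centring, which moved the median of all genes from -0.01 to 0.16, the list median was 0.01. The lowest was Tep4 (-1.23, adjusted p = 0.0617; 0.00884 without replicate 3), and dome, a cytokine receptor gene, was at -0.23 (adjusted p = 0.674). In dorsal vessel against whole larva 1 of 4 passed as higher, where 15.0% of all tested genes did: kn, the Collier factor of the lymph gland's signalling centre. The gene kn entered the test through dorsal vessel alone. It was not well above background in whole larva and read 3.80-fold higher in dorsal vessel (adjusted p = 0.00411). The Hox gene Antp was at -0.28 (adjusted p = 0.0680) there.

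Likeness of pattern was measured as the root mean square difference of the dye-corrected log2 ratios over all 8 arrays, among the 4932 genes tested in both comparisons with values on all arrays. It is a description, and the points share arrays, dyes and RNA pools. The gene most like PPO1 was Pxn, of the matrix peroxidase peroxidasin (difference 0.222), followed by CG12656 (0.310), NimB4, of a secreted Nimrod protein (0.314), Ppn, of the matrix protein papilin (0.417), and Ance-5, a relative of the angiotensin-converting enzyme gene (0.433). For PPO2 the order was Pxn (0.539), Glt, of glutactin (0.614), PPO1 (0.616), CG12656 (0.625) and Ndg, of nidogen (0.653). PPO1 was at place 3 for PPO2, while PPO2 was at place 17 for PPO1.

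Pxn was at 1.85, 2.02, 2.04 and 1.43 in heart against aorta and at -0.14, -0.80, -0.10 and 0.32 in dorsal vessel against whole larva. It was high on all 4 heart and aorta arrays and lay on both sides of 0 in the other set. Its fitted log2 ratios were 1.83 and -0.18, next to 1.79 and -0.18 for PPO1. Those of Ndg were 1.84 and 0.08, and those of Glt 1.59 and -0.87. These genes were picked for their pattern on the same arrays, so their values are given with no test.

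The pattern of PPO3 lay close to that of another lamellocyte marker. The nearest genes, a list drawn up after values were seen, were betaTub97EF, a beta tubulin gene (0.611), ItgaPS4, of an integrin alpha chain (0.640), CG13585 (0.739), Gcat (0.767) and CG14072 (0.783). In dorsal vessel ItgaPS4 read 34.3, 21.4, 4.66 and 8.01 RFU, against 2.32, 2.39, 4.76 and 2.39 RFU in whole larva. It was bright on replicates 1, 2 and 4 and at the whole larva level on replicate 3, the replicate on which PPO3 was also lowest. Its fitted log2 ratio was 1.89 (adjusted p = 0.0416), and without replicate 1, 2 or 4 the adjusted p was 0.109, 0.127 and 0.173. Like PPO3, it entered the test through dorsal vessel alone.

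In heart ItgaPS4 read 8.59, 2.45, 2.23 and 43.6 RFU, and in aorta 1.48, 2.38, 1.83 and 1.85 RFU. As for PPO3, replicates 1 and 4 were bright and replicates 2 and 3 were not. Over both sets, the log2 ratios of PPO3 and ItgaPS4 were both above 1 on 5 arrays and between -0.16 and 0.25 on the other 3. The other lamellocyte markers did not all share this pattern. Of 5 tested in dorsal vessel against whole larva 2 were higher (PPO3 and ItgaPS4) and 1 lower (shot, -0.73, adjusted p = 0.0273). Among all tested genes 15.0% were higher and 22.9% lower. Both higher markers entered the test through dorsal vessel alone, so the filter favoured their direction. The integrin beta chain gene mys was at -0.11 (adjusted p = 0.790). In the same comparison shot missed without replicate 2, 3 or 4 (adjusted p = 0.0743, 0.107 and 0.0936) and with median centring (0.483). The marker genes atilla and cher were not above detection on enough arrays to be tested. In heart against aorta 0 of 5 passed by limma, with 1 at an unadjusted p below 0.05, as were 1226 of all 5754 tested genes.

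**Figure D4:**
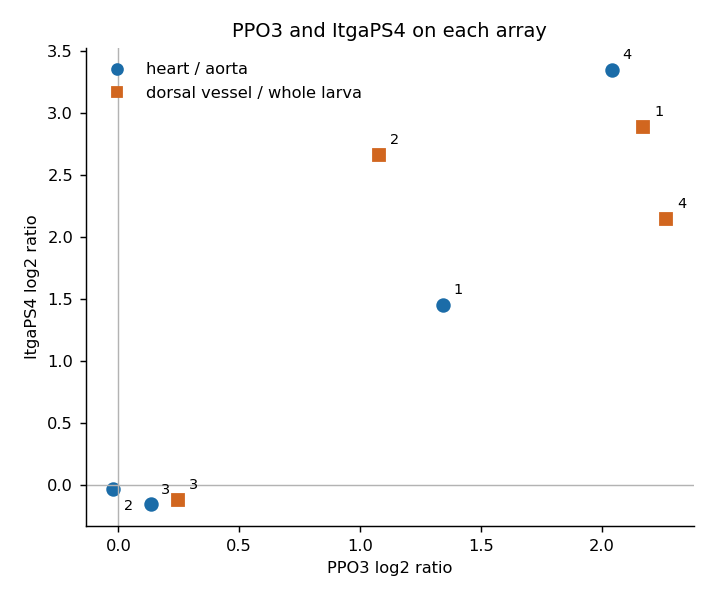
Log2 ratio of ItgaPS4 (vertical) against that of PPO3 (horizontal) on each of the 8 arrays, with circles for heart over aorta, squares for dorsal vessel over whole larva and the replicate number beside each point. Replicates 2 and 3 of heart over aorta and replicate 3 of dorsal vessel over whole larva lie near 0 for both genes, and the other 5 arrays lie above 1 for both.

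Genes beside the members in the current annotation (Release 6) were looked at for shared shifts along the chromosome. The 4 nearest neighbours of PPO1 were not above detection on enough arrays to be tested. Of the neighbours of PPO2, Ance-4 was tested in heart against aorta and was at -0.23 (adjusted p = 0.734), against 2.37 for PPO2. Ance-4 was lower in dorsal vessel than in whole larva (-3.80, adjusted p = 0.000219), as were PPO2 and 22.9% of all tested genes. CG8197 was at -1.01 (adjusted p = 0.0568). The 4 neighbours of PPO3 were tested, at log2 ratios of -0.19 to 0.18 in heart against aorta, and none passed there. In dorsal vessel against whole larva the PPO3 neighbours were at 0.28 to 0.53. Of the 4, 2 passed as higher, DCTN3-p24 (0.44, adjusted p = 0.0224) and l(2)k09913 (0.53, adjusted p = 0.0486), where 15.0% of all tested genes did.

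The gene printed on the arrays as Dox-A2, diphenol oxidase A2, is the proteasome gene Rpn3 in the current annotation and was not counted as a prophenoloxidase. It was at 0.35 in heart against aorta (adjusted p = 0.251) and 0.11 in dorsal vessel against whole larva (adjusted p = 0.575), and passed in neither.

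**Figure D5:**
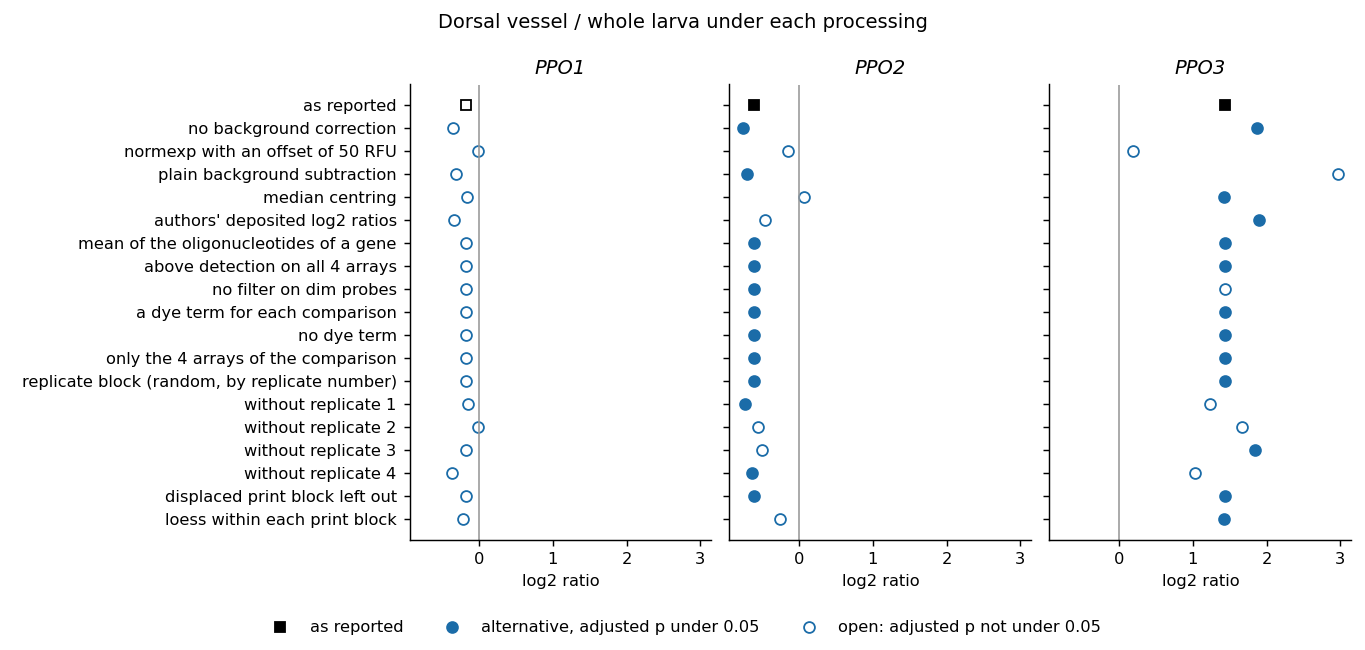
Log2 ratio of dorsal vessel over whole larva for PPO1, PPO2 and PPO3 as reported (square) and under each alternative processing (circles); filled marks have an adjusted p under 0.05. PPO3 stays above 0 in all rows and PPO1 never passes, while PPO2 lies below 0 except with median centring, at 0.06.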

How the data were processed

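Two-colour spot intensities, per the file headers, were deposited as foreground and local background in RFU with a mark on bad spots. The deposited log2 ratios had been normalised by the authors, with limma (its version is not given in those notes) listed in the submitters' processing notes; they were used as an alternative only, their scale and centring are taken as given (column medians -0.0175 to 0.0054), and their direction, not stated, was taken from the scanner values. RFU were scaled by 36.9 to a 16-bit range and corrected by normexp with an offset of 50 (1.35 RFU). Loess used a span of 0.3 and 4 iterations, with controls and bad spots at weight 0. The brightest oligonucleotide stood for a gene. Detection used 260 negative and 52 empty spots.

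Names came from the locus tag (12632 oligonucleotides), an older identifier (1267) or the file (557). All 8 arrays were fitted in limma 3.58.1 (R 4.3.3), with a coefficient for each comparison and 1 shared dye term, adjusted by Benjamini and Hochberg. Folds of genes not above detection in 1 RNA are those of the measured levels. A floor at the lowest signal above detection on each array lay no higher than those levels, so these folds are not lower bounds. Dye effects of the sets correlated at rho = 0.0478 over 5143 genes. The shared term takes them as equal, which this value does not bear out. With a dye term for each comparison 481 genes passed in heart against aorta in place of 153, so the shares of all tested genes given there depend on this choice. In simulated data the fit found 83% of 2-fold changes in heart against aorta (5754 genes) and 79% in dorsal vessel against whole larva (6575 genes), none with the wrong sign. Of 1.5-fold changes it found 52% and 34%, and 3.70% and 6.67% of the calls were false. The simulated noise was independent between arrays, with a capped SD and no dye effect. These shares therefore do not give the power in the real arrays. The members and the 20 gene lists were chosen with earlier results of these data known. Named list genes are up to 4 per list by adjusted p in dorsal vessel against whole larva, with others that passed. The pairing of RNAs within an array was kept by the ratio.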

Additional observations from a re-analysis of the deposited data

Results flagged for a closer look

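Among 86 sets of 4 array values tested for a value far from the others, 2 stood out, and chance alone marks about 1 in 20. For N in dorsal vessel against whole larva, the gap of replicate 2 (-2.21) to the nearest value was 0.877 of the range, above the 95% critical value of Dixon's test. For nec in heart against aorta, the gap of replicate 3 (0.02, against 0.53 to 0.58 on the others) was 0.913 of the range.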

How the results depend on the processing

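Of 18 alternatives, PPO2 in dorsal vessel against whole larva passed in 12 and PPO3 in 12, while PPO1 passed in 0 (log2 ratio -0.37 to -0.02, limma's adjusted p 0.133 to 0.929). The PPO2 ratio turned to 0.0621 with median centring and missed the test at -0.15 with an offset of 50 RFU, at -0.47 with the authors' deposited ratios and at -0.26 with loess within print blocks. PPO3 missed at 0.19 with that offset, at 2.96 with plain subtraction and at 1.44 with no filter on dim probes. Leaving out 1 replicate gave -0.73 to -0.50 for PPO2 and 1.03 to 1.84 for PPO3.

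In heart against aorta, PPO1 moved to 0.36 (offset of 50 RFU) and 2.79 (plain subtraction), PPO2 to 1.98 (offset), 2.79 (median centring) and 1.86 (print-block loess), and PPO3 to 1.98 (plain subtraction). The undetected lz moved to -0.11 (median centring) and 0.0875 (deposited ratios) there and to 0.0531 in dorsal vessel (no background correction); plain subtraction gave it no value.

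The 153 genes passing in heart against aorta became 61 (offset), 65 (plain subtraction), 100 (median centring), 276 (above detection on all 4 arrays), 70 (no filter), 481 (a dye term for each comparison), 8 (its 4 arrays alone) and 34 to 83 without 1 replicate. Their split of 110 higher and 43 lower in heart became 90 and 10 with median centring, 243 and 238 with a dye term for each comparison and 41 and 42 without replicate 3. Of the 6 role lists, 6 genes passed there, and 1 (offset), 3 (plain subtraction), 2 (arrays alone) or 2 to 4 (without 1 replicate). Among all tested genes 2.66% passed. PPO1 and PPO2 are 2 of the 6, and are the 2 on the arrays alone. Both were chosen with this contrast known, so for them these counts are a description with no test. In dorsal vessel against whole larva 2494 genes passed, 1310 to 2103 without 1 replicate, and of the 6 lists 35, with 22 to 32. The cause of these changes was not tested, beyond the fewer samples where arrays were left out.

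The replicate numbers were not taken to pair the 2 sets, and the values on this were mixed. Same-numbered arrays correlated at 0.102, 0.181, -0.337 and 0.0800. Replicates 2 and 4 were closest to their own number, and replicates 1 and 3 were not. The consensus correlation within replicate number was 0.315. With the replicate block, 197 and 2577 genes passed, and PPO2 (-0.61), PPO3 (1.44) and PPO1 (-0.18) kept their calls (adjusted p = 0.0138, 0.0235 and 0.369). Print-block loess and leaving out the displaced block were chosen after seeing the data. A slide or scan block was not run, as the headers give neither. Readings near detection (PPO1 in aorta, PPO3, lz) are limited by signal over background.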
